A study of Tupaia belangeri with 6 samples.

Results

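The genes described here are 8 structural genes of the myelin sheath, namely MBP, MOG, MAG, MOBP, CNP, ERMN, CLDN11 and OPALIN. They were taken by symbol from the 83605 features of the tree shrew annotation, and each symbol matched 1 feature, so that 8 of 83605 features were followed through every class of nuclei. The tissue was the hippocampus of the tree shrew (TS, Tupaia belangeri), and single-nucleus RNA sequencing (snRNA-seq) was run on flash-frozen tissue of 3 TSs with Alzheimer's-like pathology (ALP) and 3 control TSs, with 1 library per animal. Per the study's methods the ALP animals had cognitive deficits ascribed to natural aging, were picked from a colony by slow completion of a maze, and the controls were matched on age. The labels give the hippocampus, the words Normal and AD, and a replicate number, and they give no age, sex or treatment. P-values below measure the spread between these 6 animals, and slow maze performance, not a graded pathology, defined the ALP group. The study also reported stronger hippocampal staining of amyloid-β, its precursor protein and phosphorylated Tau in ALP than in control TSs.

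Myelin is the lipid-rich sheath that oligodendrocytes wrap around axons, and it is held compact on its cytoplasmic side by basic proteins such as MBP and MOBP. MOG and OPALIN lie on the outer or newly laid membrane of oligodendrocytes, MAG sits on the innermost wrap facing the axon, CLDN11 forms the tight junctions between the wraps, CNP keeps cytoplasmic channels open and ERMN links the membrane to actin late in maturation. Oligodendrocyte precursor cells (OPCs) switch these genes on as they differentiate, and neurons, astrocytes and microglia are not known for making most of them, although CNP and CLDN11 are not wholly restricted to oligodendrocytes.

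The 6 libraries held 37603 barcodes, of which 28233 passed the study's limits on genes and mitochondrial share (14387 from control and 13846 from ALP TSs). Counts were unique molecular identifiers (UMIs) per feature, total UMIs per library ran from 19182981 to 35898940, and the median UMI count of the kept nuclei ran from 1502.5 to 2187.5. Clusters were named from markers that did not include the 8 genes, and a name ends in -like. The Oligo-like class held 8129 nuclei, and its summed level of 12 oligodendrocyte markers was 8044 to 11054 CPM in control and 9740 to 10637 CPM in ALP libraries, where CPM is a gene's UMIs per 1000000 UMIs of the nuclei summed, with none of the markers at 0. Control 2 stood apart, with 1614 kept nuclei and 171 Oligo-like nuclei, or 10.6% of its nuclei against 25.5 to 35.8% in the other libraries. The long noncoding feature LINC-FRMD8-1 took 14.9 to 20.6% of the UMIs in control and 22.8 to 29.0% in ALP libraries, and features with antisense names took 6.85 to 10.1% in control and 4.53 to 5.39% in ALP libraries, and the part of either in the results below was not tested. Any pair of libraries shared 4 to 18 barcodes.

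The 8 symbols were unequally counted, and 2 of them carried next to nothing. In all barcodes MOG had 16033 UMIs, CNP 4655, ERMN 4227, CLDN11 3797, OPALIN 482, MAG 114, MBP 22 and MOBP 0. These are counts of 3′ tags on the deposited annotation, which depend on how well the end of each transcript was modelled, and they do not rank the genes by transcript abundance. In Oligo-like nuclei MBP had 6 UMIs and MOBP had 0 UMIs over the 6 libraries, and 0 UMIs allow up to 0.256 CPM over the class. MBP and MOBP therefore entered no comparison, and 6 members could be tested.

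Other features carry names built on the same symbols, and they are not members because their identity as the same gene was not established from the files. In Oligo-like nuclei the feature named MBPli1 held 11194 UMIs, LINC-MOBP-1 1703 and MAG-AS-2 348, beside 68 for MAG itself. Whether counting used the strand is not given in the sources used here, so reads of MAG and of its antisense-named partner cannot be told apart. The CPM values in this paragraph are scaled between libraries by edgeR's trimmed mean of M-values. LINC-MOBP-1 stood at 237, 45.0 and 233 CPM in controls 1 to 3 and at 76.1, 36.1 and 48.7 in ALP 1 to 3. Controls 1 and 3 were far above every ALP library, but control 2 lay inside the ALP range, so the groups overlapped. The log2 fold change (ALP over control) was −1.81 with a standard error (SE) of 0.42, and edgeR's quasi-likelihood test with Benjamini-Hochberg adjustment gave an adjusted p of 0.0328, where 3.13% of the genes tested in this class were called lower. MAG-AS-2 stood at 37.2, 15 and 53.0 CPM in control and at 13.5, 20.7 and 10.9 in ALP libraries. Here too control 2 was low and lay inside the ALP range. Its log2 fold change was −1.39 (SE 0.36, adjusted p = 0.0467 by edgeR with Benjamini-Hochberg adjustment), opposite in sign to that of MAG. Both calls were lost when control 1, control 3, ALP 1 or ALP 3 was left out (adjusted p of edgeR of 0.0818 to 0.172 for LINC-MOBP-1 and of 0.0833 to 0.235 for MAG-AS-2), and that of LINC-MOBP-1 also in DESeq2 (adjusted p = 0.184). MBPli1 stood at 1009, 802 and 819 CPM in control and at 1160.1, 982 and 982 in ALP libraries. The groups overlapped, and the log2 fold change of 0.24 (SE 0.19) did not pass the test (adjusted p = 0.506 by edgeR).

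**Figure D1:**
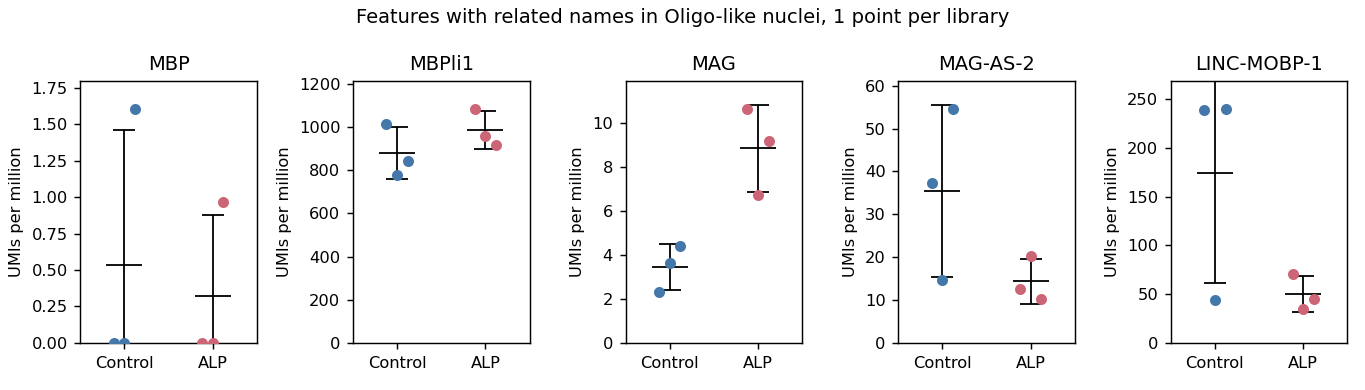
CPM of the Oligo-like class (y axis, linear from 0, without scaling between libraries) for features whose names are built on member symbols, by group (x axis), 1 point per library. LINC-MOBP-1 is high in 2 of 3 control libraries (237 and 233 after scaling between libraries) and low in control 2 and in every ALP library.

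In Oligo-like nuclei the question was whether the myelin genes differed between ALP and control animals. All 6 members that could be tested had a positive fold change, and 2 passed the test, CLDN11 and OPALIN. MAG met the filter on low counts only through the ALP libraries, so its place in the counts of this paragraph carries no weight. Over all genes tested in this class 586 of 11491 were called, or 5.1%, and 1.97% were called higher in ALP, while the median log2 fold change of all genes was −0.00 and that of each member was between 0.39 and 1.5. Of the 11491 genes 2512 had an unadjusted p below 0.05 in edgeR, and so did 5 of the 6 members. The share of all genes without overlap between the groups is not given here. A gene was called at an adjusted p below 0.05 and a log2 fold change beyond 0.25. Values below are CPM of the Oligo-like nuclei of a library, scaled between libraries by edgeR's trimmed mean of M-values.

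CLDN11, the tight junction protein of myelin, stood at 126, 119.9 and 117 CPM in controls 1 to 3 and at 188, 191 and 198 in ALP 1 to 3. The control values lay close together and so did the ALP values, with no overlap between the groups. The means were 121 ± 4.29 in control and 192 ± 4.61 in ALP (SD, n = 3 each), and the log2 fold change was 0.67 (SE 0.17, adjusted p = 0.0426, edgeR with Benjamini-Hochberg adjustment). OPALIN, a transmembrane protein of oligodendrocytes, stood at 17.9, 26.2 and 14.0 CPM in control and at 29.9, 41.9 and 38.4 in ALP libraries. Every ALP library was above every control library, with a small gap between control 2 and ALP 1. Its log2 fold change was 1.10 (SE 0.28, adjusted p = 0.0459, edgeR with Benjamini-Hochberg adjustment). Both calls sat close to the threshold. With control 2 left out the adjusted p of edgeR was 0.0350 for CLDN11 and 0.0257 for OPALIN, whereas leaving out control 1, control 3, ALP 1, ALP 2 or ALP 3 ended both calls, with the adjusted p at 0.0563 to 0.197 for CLDN11 and at 0.0613 to 0.192 for OPALIN. The call was also lost for OPALIN in DESeq2 (adjusted p = 0.0811) and for CLDN11 with no filter on low counts (adjusted p = 0.0859).

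ERMN, the actin-binding protein ermin of mature oligodendrocytes, stood at 176, 184 and 100.1 CPM in control and at 261, 299 and 258 in ALP libraries. The groups did not overlap, and control 3 was the lowest. The log2 fold change was 0.87 (SE 0.23) and missed the threshold (adjusted p = 0.0544, edgeR with Benjamini-Hochberg adjustment). It passed with control 1 left out (adjusted p = 0.0471) and with control 2 left out (adjusted p = 0.0360), and in DESeq2 (adjusted p = 0.0248). With no filter on low counts it also passed (adjusted p of edgeR 0.0118).

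MOG, the immunoglobulin-domain protein of the outermost myelin surface, stood at 675, 734 and 626 CPM in control and at 936, 944 and 1023 in ALP libraries. The groups did not overlap. The means were 678 ± 54.6 and 968 ± 48.0 (SD, n = 3 each), and the log2 fold change of 0.52 (SE 0.18) did not pass the test (adjusted p = 0.121, edgeR with Benjamini-Hochberg adjustment). MAG, the adhesion protein facing the axon, rested on few counts, with 8, 1 and 11 UMIs in control and 16, 13 and 19 in ALP libraries. As CPM of the class this came to 2.31, 3.75 and 4.28 in control and to 11.4, 6.89 and 9.85 in ALP libraries, again without overlap, although control 2 rested on 1 UMI. Only the ALP libraries reached the filter on low counts, so the sign and the lack of overlap of MAG carry no weight. The log2 fold change was 1.5 (SE 0.46, adjusted p = 0.0855, edgeR with Benjamini-Hochberg adjustment).

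CNP, the cyclic nucleotide phosphodiesterase of the noncompact myelin, stood at 165, 157 and 109 CPM in control and at 228, 126 and 204 in ALP libraries. ALP 2 fell below controls 1 and 2, so CNP was the tested member whose groups overlapped. The log2 fold change was 0.39 (SE 0.25, adjusted p = 0.404, edgeR with Benjamini-Hochberg adjustment).

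**Figure D2:**
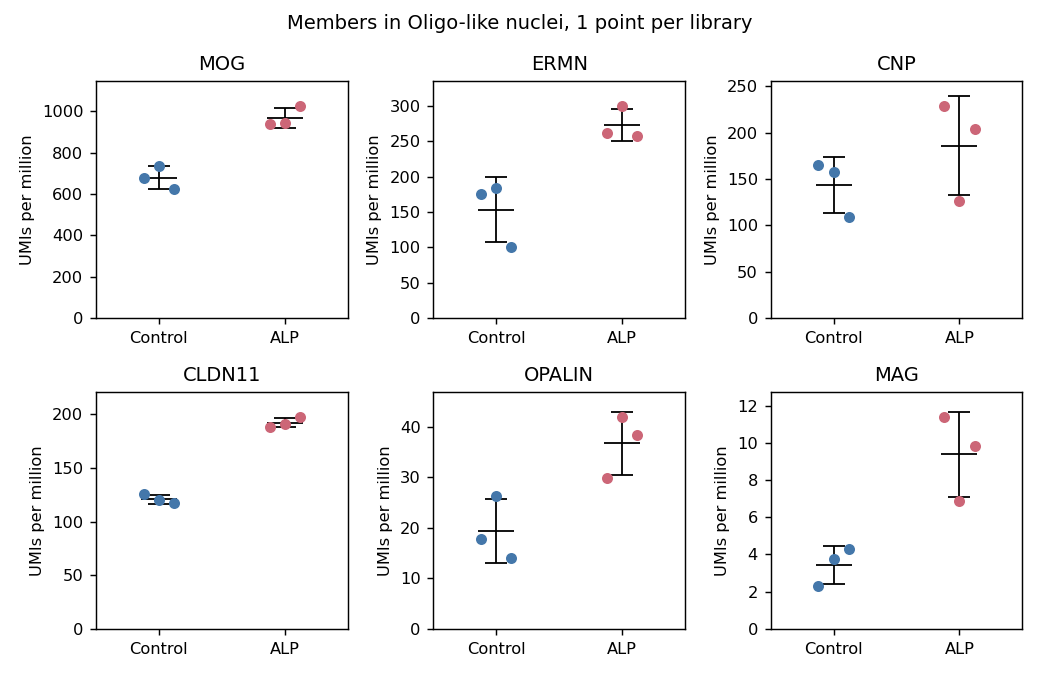
CPM of the Oligo-like class (y axes, linear from 0, scaled between libraries by edgeR) for the 6 tested members by group (x axis), with 1 point per library. CLDN11 lies at 117 to 126 in control and 188 to 198 in ALP libraries, and the CNP groups overlap.

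Markers of other cell types in the Oligo-like class were compared beside these values. Astrocyte markers summed to 156 to 215 CPM in control and 165 to 188 in ALP libraries, and microglial markers to 25.5 to 39.7 and 21.8 to 28.5. OPC markers summed to 1073 to 1505 in control and 897 to 1067 in ALP libraries, without overlap but with a narrow gap. Ependymal markers were 27.8 to 40.5 in control and 14.5 to 17.1 in ALP libraries, also without overlap. Markers of the inhibitory neurons summed to 94.9 to 133 in control and 84.1 to 97.4 in ALP libraries, and those of excitatory neurons to 255 to 325 and 274 to 295. Of these marker lists, ADGRV1 of the astrocyte list and GAD2 of the inhibitory neuron list were at 0 in every library. The part of these RNAs in the member values was not tested.

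The Oligo-like class was made of 4 large clusters and 1 of 64 nuclei, and the libraries filled them differently. Cluster 2, led by SYT10, TNFAIP6, KLK6 and HAPLN2, held 6.17, 25.1 and 8.59% of the Oligo-like nuclei in controls 1 to 3 and 59.8, 38.2 and 63.1% in ALP 1 to 3. Cluster 6, led by CYYR1, SHROOM4 and DACH2, held 41.6, 22.2 and 29.6% in control and 7.39, 11.1 and 5.83% in ALP libraries. Genes that shape the clusters differ between the groups, so the shares are given as a description and carry no test. Cluster 4 (led by NINJ2, IL33 and ANO4) held 25.9 to 38.0% in control and 20.6 to 33.1% in ALP libraries, and cluster 7 (led by ELOVL7 and MGAT4Cli1) held 14.0 to 25.7% and 9.36 to 16.2%.

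Within clusters 2, 4, 6 and 7 ERMN, CLDN11, MOG and CNP could each be tested, and they had a positive fold change with 1 exception and none was called. OPALIN could be tested in cluster 2 alone, with a log2 fold change of 0.73, and MAG in none of them. The share of all genes called was 1.99, 1.11, 1.42 and 1.26% in clusters 2, 4, 6 and 7. The log2 fold change of ERMN was 0.64, 1.01, 0.85 and 0.99 in that order. That of CLDN11 was 0.47, 0.74, 0.51 and 0.52. The exception was CNP, whose log2 fold change was 0.27, 0.70, −0.047 and 0.27, while MOG was at 0.53, 0.46, 0.30 and 0.40. LINC-MOBP-1, which is not a member, was called lower in each of the 4 clusters, with log2 fold changes of −1.91, −1.96, −1.76 and −2.16. The groups overlapped in each of them, because control 2 lay inside or below the ALP range, on 4, 4, 3 and 1 UMIs. With the clusters of a library given equal weight, the log2 difference between ALP and control was 0.54 for CLDN11, 0.76 for OPALIN, 0.79 for ERMN, 0.99 for MAG, 0.38 for MOG and 0.22 for CNP, on CPM without scaling between libraries. Between the clusters themselves MOG averaged 818, 771, 769 and 785 CPM (means of 6 libraries) in clusters 2, 4, 6 and 7, ERMN 218, 179, 186 and 234, and OPALIN 31.4, 21.9, 25.5 and 24.6. MAG averaged 9.06 ± 4.81 in cluster 2, 6.36 ± 4.93 in cluster 4, 1.84 ± 3.06 in cluster 6 and 2.91 ± 3.84 in cluster 7 (SD, n = 6). The SD was below the mean in clusters 2 and 4 and above it in clusters 6 and 7.

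Per nucleus the members were detected in part of the Oligo-like nuclei. To compare libraries of unequal depth each nucleus was thinned to 1000 UMIs, and shallower nuclei were left out. At that depth 48.3, 49.1 and 46.8% of the Oligo-like nuclei in controls 1 to 3 and 57.3, 60.4 and 59.0% in ALP 1 to 3 held at least 1 MOG UMI. The groups did not overlap. The shares averaged 48.1 ± 1.17% in control and 58.9 ± 1.57% in ALP (SD, n = 3 each), and the exact permutation test gave p = 0.1 (two-sided), the smallest that 3 against 3 libraries allow. ERMN was detected in 13.5 ± 3.43% and 22.4 ± 2.06%, CLDN11 in 10.9 ± 0.778% and 15.9 ± 0.759%, and OPALIN in 1.81 ± 0.369% and 3.63 ± 0.757%, each without overlap. CNP was detected in 12.8 ± 1.85% of control and 15.4 ± 3.64% of ALP nuclei, with overlap. Over the 6 libraries the MOG share was 53.5% thinned and 64.0% unthinned, against 1.78% thinned and 5.87% unthinned in InN-like nuclei, inhibitory neurons that should lack the gene, where the median depth was 4275 UMIs against 1332 in Oligo-like nuclei.

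Without thinning, 22.3, 27.5 and 23.9% of the Oligo-like nuclei in controls 1 to 3 and 17.7, 14.6 and 16.6% in ALP 1 to 3 held no member UMI. Every ALP library was lower than every control library. The median depths of the Oligo-like nuclei were 1425, 1482 and 1647.5 UMIs in control and 1169.5, 1326 and 1181 in ALP libraries. The part of depth in these shares was not tested. At least 2 different members were seen in 35.5, 38.6 and 31.4% of control and in 42.0, 45.5 and 39.4% of ALP nuclei, and the largest number in a nucleus was 5.

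Other genes of the oligodendrocyte program were read from 4 lists in the Oligo-like class. Of 20 other myelin membrane and paranode genes 17 could be tested, 2 were called higher and none lower in ALP, 13 had a positive fold change, and the median log2 fold change was 0.38. The 2 genes called were CD9 and GPR37. CD9, a tetraspanin, stood at 151, 187 and 164 CPM in control and at 472, 399 and 530 in ALP libraries (log2 fold change 1.5, SE 0.19, adjusted p = 0.00743 by edgeR with Benjamini-Hochberg adjustment). CD9 was thus more than doubled in every ALP library. GPR37, a receptor of maturing oligodendrocytes named here after its values were seen, had a log2 fold change of 0.74 (SE 0.19, adjusted p = 0.0473 by edgeR). PMP2, a fatty acid binding protein of myelin, had a log2 fold change of 1.80 (SE 0.54, adjusted p = 0.0779 by edgeR) on 17 UMIs in control and 51 in ALP libraries. Like MAG, PMP2 met the filter on low counts only through the ALP libraries, so its sign carries no weight.

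The other lists held no called gene by edgeR. Of 20 myelin lipid genes 17 were tested, 10 had a positive fold change, and the median log2 fold change was 0.09. GAL3ST1, the sulfotransferase of sulfatide synthesis, was at 1.36 (SE 0.65, adjusted p = 0.247) and SMPD1, a sphingomyelinase, at 0.77 (SE 0.52, adjusted p = 0.434), and both overlapped between the groups. Of 13 oligodendrocyte transcription factors 11 were tested, 9 had a positive fold change, and the median was 0.20. NKX6-2, a homeodomain factor of maturing oligodendrocytes, was at 0.94 (SE 0.25, adjusted p = 0.0526 by edgeR) and OLIG2, the lineage factor, at 0.81 (SE 0.26, adjusted p = 0.0993), both without overlap. Of 12 genes of newly formed oligodendrocytes 7 were tested and 4 were positive, with a median of 0.16. BCAS1, a mark of early myelinating cells, was at 0.54 (SE 0.18, adjusted p = 0.107 by edgeR) and FYN, a kinase of early myelination, at −0.38 (SE 0.20, adjusted p = 0.317).

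Outside oligodendrocytes the 8 genes were counted in every class. Of 22531 member UMIs in kept nuclei 15555 (69.0%) lay in Oligo-like nuclei, from 47.1 to 73.5% per library. By gene the share in Oligo-like nuclei was 76.9% for OPALIN, 73.8% for MOG, 72.3% for MAG, 70.5% for ERMN, 61.1% for CLDN11 and 55.6% for CNP. The summed level was 1349 ± 260 CPM in Oligo-like nuclei (SD, n = 6) and 348 ± 53 in Micro-like nuclei, the highest other named class. The mean log2 ratio of the Oligo-like class to the highest other named class of the same library was 1.94 ± 0.19 (SD, n = 6). Of the Micro-like nuclei 6.62% were marked as doublets, against 0.185% of the Oligo-like nuclei. The ratio with marked doublets removed is given in the last section.

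The order below these classes was only partly clear. Unnamed clusters with oligodendrocyte markers mixed with those of another class (566 nuclei) reached 1314 ± 258 CPM, and the Oligo-like class was above them in 4 of 6 libraries. Unnamed low-depth clusters (3013 nuclei, median 766 UMIs) stood at 485 ± 116 and were above Micro-like nuclei in 6 of 6 libraries, and Micro-like were above Endo-like nuclei (231 ± 82) in 6 of 6. A small cluster of 105 nuclei led by SLC13A4, SLC6A20, TBX18 and the collagen genes COL3A1 and COL1A2 stood at 200.4 ± 93. Ependymal-like nuclei (142 ± 64), OPC-like (135 ± 42), Astro-like (126 ± 27) and Gran-like nuclei, the granule neurons (117 ± 56), could not be ordered, with each neighbour above the next in 3 or 4 of 6 libraries. ExN-like nuclei, the other excitatory neurons, stood at 56 ± 25, above InN-like nuclei (37 ± 14) in 5 of 6 libraries.

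**Figure D3:**
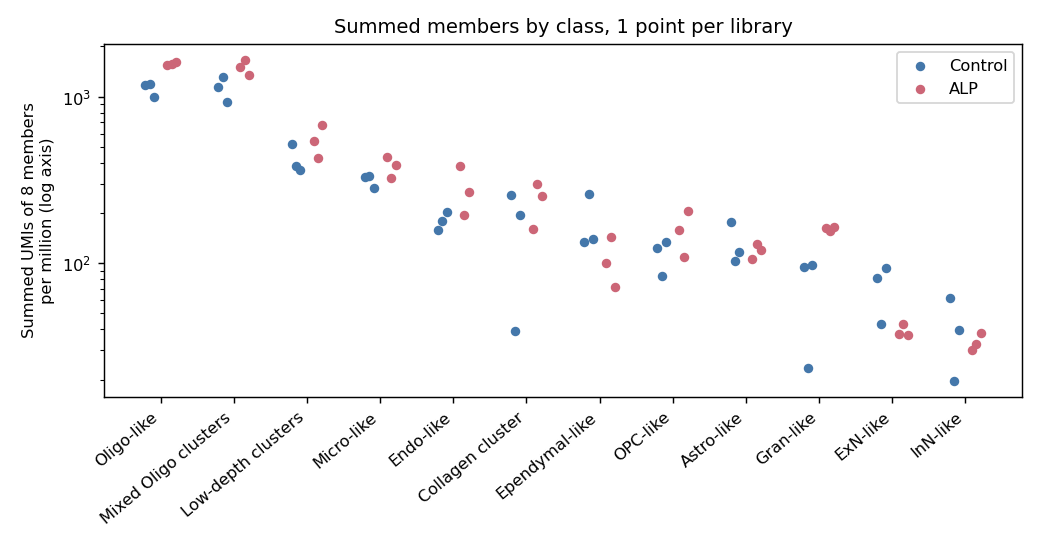
Summed level of the 8 members in CPM of a class (y axis, log scale) by class (x axis), with 1 point per library, control and ALP in different colours. Oligo-like nuclei and the clusters with mixed oligodendrocyte markers stand at means of 1349 and 1314, low-depth clusters at 485 and InN-like nuclei at 37.

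As a percent of the Oligo-like level of the same library, MOG had a median of 22.5% in Micro-like nuclei, 26% in the low-depth clusters, 7.76% in OPC-like, 6.47% in Astro-like, 7.82% in Gran-like, 2.05% in ExN-like and 1.91% in InN-like nuclei. CNP stood higher on this scale, at 44.9% in Micro-like, 45.6% in Endo-like, 28.5% in OPC-like, 21.2% in Astro-like and 4.91% in InN-like nuclei. With nuclei thinned to 1000 UMIs, a MOG UMI was seen in 15.9% of Micro-like nuclei, 19.3% of nuclei in low-depth clusters, 4.16% of OPC-like and 1.78% of InN-like nuclei (means of 6 libraries), and any member in 25.9, 36.2, 10.3 and 3.77%. Thinning left out 657 of 1404 Micro-like and 2064 of 3013 low-depth nuclei. The part of RNA free in the suspension in these counts was not tested.

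The make-up of the member UMIs in each class was compared with that in the Oligo-like nuclei of the same library. MOG was 59.2% of the member UMIs in Oligo-like nuclei, and CNP was 11.9%. In the other named classes, the collagen cluster and the low-depth clusters MOG was 25.4 to 50.6% and CNP 15.8 to 33.9%. Other unnamed clusters were left out, among them those with mixed oligodendrocyte markers (569 MOG UMIs of 956 member UMIs). The test was an exact two-sided sign-flip permutation test over the 6 libraries on the log2 odds, for 34 pairs of class and gene with at least 20 UMIs. In 18 pairs the log2 odds, with 0.5 UMIs added, shifted the same way in every library, which gives the smallest p that 6 libraries allow, 0.03125, and an adjusted p of 0.0590, so that no pair passed. In 14 of the 18 the share as counted, with nothing added, also lay on the same side of the Oligo-like share in every library. In OPC-like nuclei the log2 odds of CNP were higher by 1.95 ± 0.99 (SD, n = 6), and the share as counted was higher in 6 of 6 libraries. In Ependymal-like nuclei they were higher by 2.07 ± 1.29 on 20 CNP UMIs, and the share as counted was higher in 5 of 6. In the collagen cluster CLDN11 made up 23 of 48 member UMIs (47.9%), and its log2 odds were higher by 2.58 ± 0.78. The share as counted was higher in 5 of 6 libraries, and control 2 had 0 CLDN11 UMIs of 1 member UMI in this cluster. That cluster was named from its leading genes because markers of mural cells were few in its 105 nuclei, with 17 UMIs of PDGFRB, 14 of RGS5, 3 of NOTCH3 and 1 of CSPG4.

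**Figure D4:**
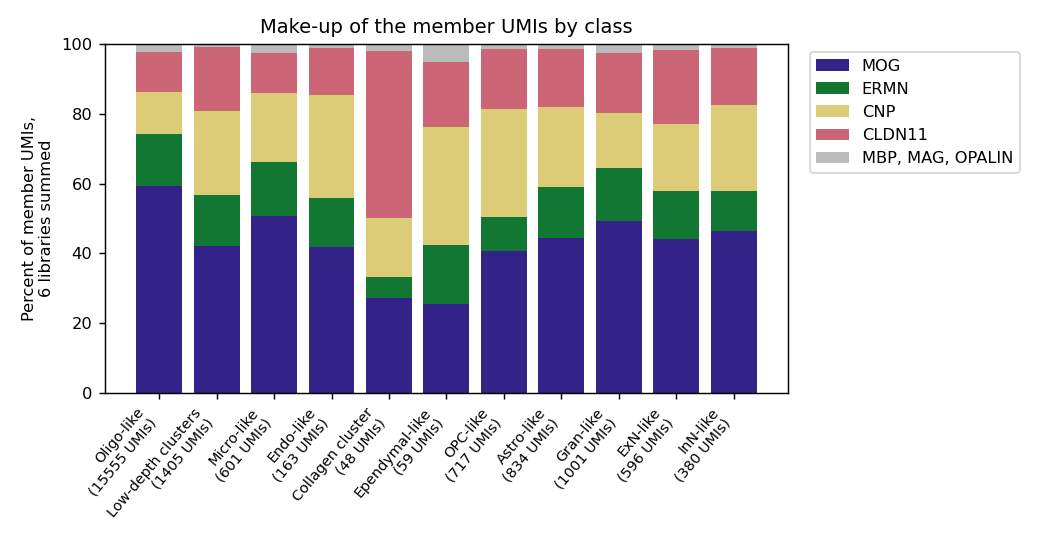
Percent of member UMIs taken by each member (y axis, 6 libraries summed) by class (x axis, with the number of member UMIs). MOG takes 59.2% in Oligo-like nuclei and CNP 11.9%, CNP takes up to 33.9% in the other classes shown, and CLDN11 takes 47.9% of the 48 UMIs of the collagen cluster.

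OPC-like nuclei were split by the presence of a BCAS1 UMI, since BCAS1 is gained as precursors differentiate. Nuclei with BCAS1 held 128, 79.0 and 130 member CPM in controls 1 to 3 and 196, 108 and 237 in ALP 1 to 3. Those without BCAS1 held 105, 95.5 and 142 in control and 93.8, 111 and 154 in ALP libraries. The order of these values differed between libraries, with the nuclei that held BCAS1 higher in control 1, ALP 1 and ALP 3 and lower in the other libraries, and they were also deeper, with median depths of 1581 to 2233 UMIs against 1357 to 2047.

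The ALP comparison was repeated in the other classes, with CPM again scaled between libraries by edgeR. Of 27 tests of a member in a class 1 passed, and 19 had a positive fold change. The test that passed was MOG in Gran-like nuclei, at 41.8, 14.5 and 42.7 CPM in controls 1 to 3 and at 87.1, 86.1 and 99.2 in ALP 1 to 3. Every ALP library was more than 2 times the highest control library, and control 2, with 58 Gran-like nuclei, was the lowest. The log2 fold change was 1.24 (SE 0.25, adjusted p = 0.0397, edgeR with Benjamini-Hochberg adjustment), where 170 of 10383 genes, or 1.64%, were called and 0.308% were called higher. The call was lost when control 3, ALP 1, ALP 2 or ALP 3 was left out (adjusted p of 0.0748 to 0.230), and without the upper limit on genes per nucleus the log2 fold change was 0.70 (adjusted p = 0.166). In the same class ERMN was at 15.8, 4.82 and 11.4 in control and at 16.5, 37.5 and 19.8 in ALP libraries, without overlap (log2 fold change 0.93, adjusted p = 0.256 by edgeR).

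In ExN-like nuclei the direction was the opposite. ERMN stood at 14.6, 8.21 and 8.53 CPM in control and at 5.90, 5.78 and 2.95 in ALP libraries, and CNP at 17.0, 13.1 and 17.1 in control and 8.85, 7.59 and 5.90 in ALP libraries. For both genes every ALP library was below every control library. The log2 fold changes were −1.16 for ERMN (adjusted p = 0.220) and −1.09 for CNP (adjusted p = 0.152), and neither passed in edgeR, which called 0 of 13293 genes (0%) in this class, while 2259 had an unadjusted p below 0.05 and DESeq2 called 298. MOG in the low-depth clusters stood at 220.1, 120.0 and 188 in control and 270.2, 224 and 344 in ALP libraries (log2 fold change 0.65, adjusted p = 0.664, with 0.0326% of genes called). Micro-like nuclei (0.717% of genes called), OPC-like (1.62%), Astro-like (0.187%) and InN-like nuclei (0.067%) had no called member. In Micro-like nuclei MOG was at 162, 266 and 192 in control and at 234, 195 and 258 in ALP libraries, with overlap.

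**Figure D5:**
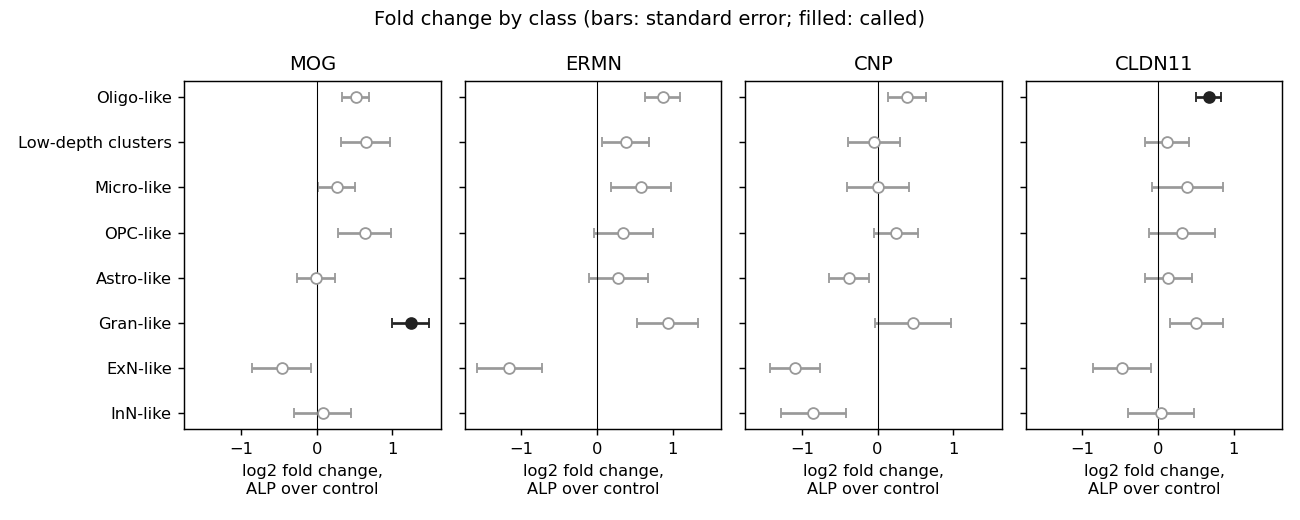
Log2 fold change of ALP over control (x axis) for MOG, ERMN, CNP and CLDN11 by class (y axis), with bars of 1 SE and filled points for calls. In Oligo-like nuclei all points lie right of 0, with CLDN11 (0.67) called. MOG in Gran-like nuclei (1.24) is called, and ERMN (−1.16) and CNP (−1.09) in ExN-like nuclei lie left of 0.

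Whether the summed member level in 10 other classes followed the members' share of all UMIs of a library, over every barcode, was examined over libraries. That share overlapped between the groups and ran from 0.00722% in control 2 to 0.0269% in ALP 3. With 3 libraries in each group a relation over libraries was not separated from a difference between groups, and no correlation coefficient is given. Of the 10 classes none passed the exact permutation test over libraries (lowest adjusted p = 0.114).

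In the sum over all kept nuclei, where more Oligo-like nuclei and more RNA per nucleus cannot be told apart, the log2 fold changes were 1.71 for MAG, 1.06 for OPALIN, 0.82 for ERMN, 0.62 for MOG, 0.52 for CLDN11 and 0.13 for CNP. None passed in edgeR (adjusted p of 0.103 to 0.785), which called 0 of 22749 genes (0%), while 5323 had an unadjusted p below 0.05 and DESeq2 called 1740. The share of Oligo-like nuclei was 31.4, 10.6 and 25.5% in controls 1 to 3 and 31.0, 26.6 and 35.8% in ALP 1 to 3. The members' share of all UMIs, over every barcode, was 0.0233, 0.00722 and 0.0166% in control and 0.0186, 0.0177 and 0.0269% in ALP libraries, with control 2 the lowest and the groups overlapping.

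Genes whose pattern over 60 sums of library and named class was among the most like the summed members, over 18971 genes, were TF, the iron carrier transferrin (Pearson r = 0.93), GOLGA7 (r = 0.87), CTNNA3 (r = 0.86) and the antisense-named feature URM1-AS-1 (r = 0.84). The sums share libraries and depth, and TF was among the markers that named the Oligo-like class, so the values are a description without a test.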

How the data were processed

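UMI counts per feature and barcode were analysed as the authors deposited them, as raw counts of 10x Genomics 3′ v3.1 libraries. Cell Ranger 3.1.0 is named in the study's methods and cellranger 6.1.2 in the matrix headers, with the TreeshrewDB annotation. The genome build, the use of introns and the use of strand are not given in the sources used here. Nuclei with at least 200 and fewer than 2500 genes and under 5% mitochondrial UMIs were kept, following the study. Counts were clustered with scanpy 1.11.5 and leidenalg 0.10.2 (2000 variable genes, 30 principal components, 20 neighbours, resolution 2), leaving out 13 features named after the members. Classes needed 3 markers of their list seen in at least 3% of nuclei and at 1.5 times the other nuclei, and these naming thresholds were set after seeing the data. Class names rest on rebuilt clusters. Doublets were scored by simulated doublets at 0.8% per 1000 barcodes, and clusters with over 15% marked nuclei stayed unnamed. UMIs were summed per library and class (at least 10 nuclei) and the sums went into edgeR's quasi-likelihood test (version 4.0.16 under R 4.3.3) with TMM scaling, a minimum count of 10 and Benjamini-Hochberg adjustment. DESeq2 1.42.0 was an alternative. The study itself compared nuclei. Sums over animals were used here because nuclei of 1 animal are not replicates. Exact tests used numpy 2.4.6 with scipy 1.17.1. Log2 odds used 0.5 added UMIs. On data simulated from the Oligo-like sums, with log2 fold changes of 1.5 or 2 either way, the test recovered 75.5% of 200 changed genes among 11491. It made 14 false calls. Smaller changes, such as those of most tested members, were not simulated, so the value is not the recovery at their size. Precision is limited by 3 animals per group, and intervals of counting error cover counting only. The 8 members, gene lists and named genes (all members, and of each list the 2 genes with the largest fold change) were chosen with earlier results of these data known. 1 further listed gene is not reported here.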

Additional observations from a re-analysis of the deposited data

Results flagged for a closer look

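The fold change of ERMN had opposite signs in different classes of nuclei. In ExN-like nuclei every ALP library lay below every control library (log2 fold change −1.16), whereas in Gran-like nuclei (0.93) and in Oligo-like nuclei (0.87) every ALP library lay above every control library. None of the 3 changes passed edgeR's test on its own. Counts outside the Oligo-like class were low, with 5 to 30 ERMN UMIs per library in ExN-like nuclei. In Gran-like nuclei control 2 held 1 ERMN UMI, and control 1 (15.8 CPM) lay just below ALP 1 (16.5). The difference between the classes was not tested.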

How the results depend on the processing

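Each result was recomputed under other normalization, filters, doublet removal, resolution 1, no upper gene limit, DESeq2 and without each library, and 3 alternatives on the Oligo-like clusters were added after seeing the data. The 6 tested members kept a positive fold change over the whole Oligo-like class in every alternative, and the reversals were in cluster 6 alone, for CNP (−0.047) and for MBPli1 (−0.15). Members called in Oligo-like nuclei numbered 2, against 0 with the replicate block and 0 to 3 without single libraries. In other classes 1 was called, against 0 with the replicate block, 0 without the upper gene limit and 0 to 1 without single libraries. In all kept nuclei 0 were called, against 4 with no filter on low counts, where 3386 of 54978 genes were called. Genes called in Oligo-like nuclei numbered 586, against 1312 with no filter, 170 with the replicate block and 3 to 1085 without single libraries. In Gran-like nuclei they numbered 170, against 774 with no filter, 15 with the replicate block, 590 without the upper gene limit and 0 to 534 without single libraries. With no filter the median log2 fold change of all genes was −0.25 in Oligo-like, −0.18 in Gran-like and −0.12 in all kept nuclei. The replicate block ended the calls of CLDN11 (adjusted p of edgeR 0.120), OPALIN (0.108) and MAG-AS-2 (0.113) in Oligo-like and of MOG in Gran-like nuclei (0.0851). The labels do not say whether the replicate numbers pair the libraries. Deviations of same-numbered libraries from their group means (log CPM) correlated at −0.01 to −0.07 in Oligo-like nuclei. In all kept nuclei they correlated at −0.06 to −0.10. With 3 libraries per group these values cannot decide whether the libraries were paired. The MOG share in Oligo-like nuclei was 53.5% at 1000 UMIs, 32.1% at 500 and 64.0% without thinning. The log2 ratio of the Oligo-like to the next class was 1.94, and 2.18 with marked doublets removed. Apart from the changes that follow from fewer samples or from thinning, the cause was not tested. MAG, OPALIN and the classes of few nuclei were limited by depth.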
